A study of Mus musculus with 72 samples.

Results

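A set of 5 genes of innate sensing was followed across mouse cortex: Tlr2, Cd14, Ccl3, Nfkbia and Cybb, 5 of the 1266 genes measured. They were taken by name for their roles, a Toll-like receptor with its co-receptor, a chemokine made after the receptor fires, the inhibitor that stops the pathway and a subunit of the NADPH oxidase. The choice was made with earlier results of these data known. Against 5xFAD mice, 5xFAD mice with the M28L variant of Plcg2 had less Tlr2, Cd14, Ccl3 and Cybb and more Nfkbia. With the P522R variant, Nfkbia was higher and Ccl3 slightly lower than in 5xFAD mice, and Tlr2, Cd14 and Cybb did not pass the test. In that comparison 65.4% of all 1266 genes passed, and both results were lost in a fit without a sex term. The Ccl3 result held in 25 of 36 fits that leave out a mouse.

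Toll-like receptors sit on microglia and other myeloid cells and bind products of microbes and of damaged tissue, aggregated amyloid among them. Tlr2 passes the signal through the adaptor Myd88, Cd14 hands ligands to Tlr2 and Tlr4, and kinases downstream release NF-kB from the inhibitor that Nfkbia encodes. NF-kB then turns on chemokines such as Ccl3, and Nfkbia itself, which ends the signal. Cybb encodes gp91phox, the membrane subunit of the phagocyte NADPH oxidase that makes superoxide. Plcg2 encodes phospholipase C gamma, a signalling enzyme of microglia. In brain, Tlr2, Cd14, Ccl3 and Cybb are best known from microglia.

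The study measured cortical RNA of 36 mice at 7.5 months with NanoString nCounter, which counts barcoded probes bound to a fixed set of transcripts. Every mouse carried the 5xFAD transgenes, human amyloid precursor protein and presenilin with familial mutations under a neuronal promoter, so no group is free of amyloid. The groups were 5xFAD alone, M28L_5xFAD and P522R_5xFAD, with 6 females (F) and 6 males (M) in each. Each mouse has a record for a Glial and for a Neuropathology panel, 72 records in all, and the deposited table holds 1 column of log2 values per mouse. Plcg2 was not analysed here, so the genotype labels were not checked on the variant gene. A pair of M28L females carries the animal number 14 with different index numbers, and both were kept as separate mice.

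The deposited values were whole multiples of a step per mouse and panel, which gave back the counts. Depth depended on the panel. The panel of 757 genes, with Tlr2, Cd14, Ccl3 and Cybb, had 921565 to 1957325 counts, and the panel of 509 genes, with Nfkbia, had 237563 to 774198. The groups also differed in the counts of the 50 dimmest genes of a panel, a measure of the floor. On the 757-gene panel their median was 5.0 counts in 5xFAD and in M28L females, 9.0 and 10.25 in the males of these genotypes, and 12.0 and 12.5 in P522R females and males. The part of these differences in the results was not tested. Between P522R mice and 5xFAD mice 65.4% of all 1266 genes passed the test, between P522R and M28L mice 67.6%, and between the sexes 86.4%, against 10.3% between M28L and 5xFAD mice. A call in the first 3 comparisons is therefore common in this table.

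Promoter windows from RefSeq are given for Tlr2, Ccl3, Nfkbia and Cybb, since Ccl3 and Nfkbia are textbook NF-kB targets that moved in opposite directions in M28L mice; Cd14 is not shown. Each window runs from 250 bases before to 50 bases after a transcript start, 5′ to 3′ along the gene, on the minus strand of GRCm38.p6. They lie at chr3:83841559-83841858 for Tlr2, chr11:83649329-83649628 for Ccl3, chr12:55492598-55492897 for Nfkbia and chrX:9469275-9469574 for Cybb. The starts used for Tlr2 and Cybb lie within the spans of these genes (bases 83836272 to 83841824 and 9435252 to 9487766), at the start of 1 transcript. Capitals mark matches to the NF-kB consensus on either strand.
Tlr2: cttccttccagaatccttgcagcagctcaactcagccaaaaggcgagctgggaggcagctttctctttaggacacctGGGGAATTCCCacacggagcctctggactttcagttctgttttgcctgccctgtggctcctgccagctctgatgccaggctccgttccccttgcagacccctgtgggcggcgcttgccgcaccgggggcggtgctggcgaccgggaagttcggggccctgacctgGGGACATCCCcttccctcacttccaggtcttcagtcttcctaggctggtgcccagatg
Ccl3: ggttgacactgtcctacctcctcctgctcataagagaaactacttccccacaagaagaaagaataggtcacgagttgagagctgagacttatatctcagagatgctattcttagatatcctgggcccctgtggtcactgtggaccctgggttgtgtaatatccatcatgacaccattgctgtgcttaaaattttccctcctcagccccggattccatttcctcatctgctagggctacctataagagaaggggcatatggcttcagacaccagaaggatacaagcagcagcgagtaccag
Nfkbia: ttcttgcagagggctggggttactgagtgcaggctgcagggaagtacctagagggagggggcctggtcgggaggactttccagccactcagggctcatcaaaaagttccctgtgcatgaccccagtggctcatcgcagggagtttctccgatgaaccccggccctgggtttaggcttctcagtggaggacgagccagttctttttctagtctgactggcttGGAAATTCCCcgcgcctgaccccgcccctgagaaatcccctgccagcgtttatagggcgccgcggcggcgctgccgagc
Cybb: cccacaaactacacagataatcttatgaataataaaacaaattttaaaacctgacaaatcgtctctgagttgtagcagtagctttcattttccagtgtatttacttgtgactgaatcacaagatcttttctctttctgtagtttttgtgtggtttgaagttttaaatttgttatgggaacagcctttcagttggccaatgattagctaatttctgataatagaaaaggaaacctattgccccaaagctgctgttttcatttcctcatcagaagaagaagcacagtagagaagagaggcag

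Tlr2 had 3 matches to the NF-kB consensus, which begin 173, 172 and 8 bases before the start, and the first and second of these overlap. Nfkbia had 1, 29 bases before the start. Ccl3 and Cybb had none in these windows. Of 32851 RefSeq windows of 300 bases, 8.46% held such a match. The AP-1 motif TGANTCA occurred once, in Cybb, 139 bases before the start, and in 7.81% of all windows. The PU.1 core GAGGAA occurred in Ccl3, 33 bases before the start, and in Cybb just after it, and in 28.3% of all windows. The TATA box TATAAA had a match on the opposite strand of Nfkbia after the start, and matches in 13.6% of all windows. Both strands were searched, and a match is a stretch of letters, not a bound site.

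The first question was how M28L_5xFAD mice differed from 5xFAD mice in these genes. All 5 passed the test averaged over the sexes, 4 lower and 1 higher, where 5.61% of all genes were called lower and 4.66% higher. The 5 genes were chosen with earlier results of these data known, so setting them beside all genes does not test the set. Ccl3 fell most, to a level 2.4-fold lower, followed by Cybb, 2.14-fold lower, Cd14, 1.56-fold lower, and Tlr2, 1.44-fold lower. Nfkbia was 1.39-fold higher. The median difference of the 5 genes was -0.64 on the log2 scale, beside 0.00 over all 1266 genes. Differences are of the deposited log2 values, with no pseudocount, and tests are limma's with Benjamini-Hochberg adjustment over all 1266 genes.

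**Figure D1:**
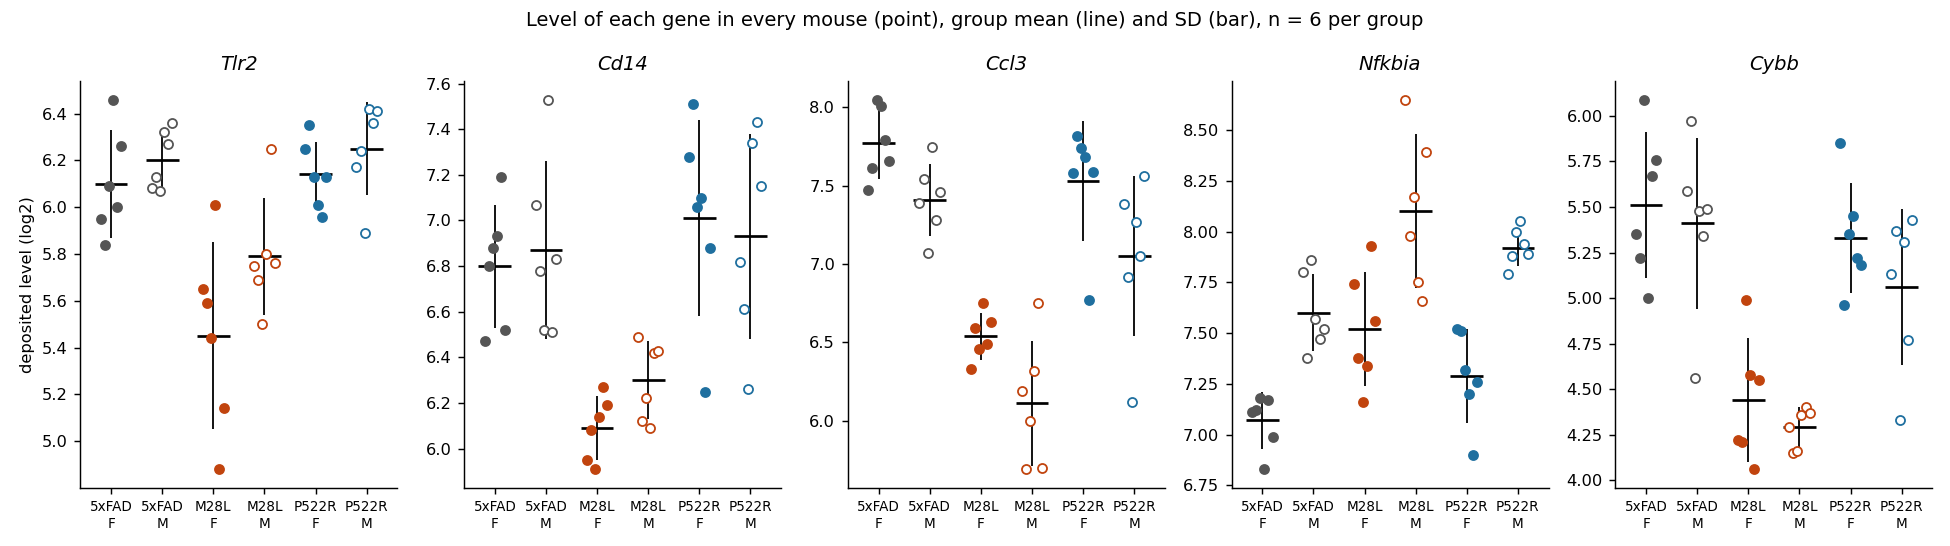
Deposited log2 level (y axis, a scale per gene) of each gene in every mouse of the 6 genotype and sex groups, females filled and males open, with the group mean (line) and SD (bar), n = 6. For Cd14, Ccl3 and Cybb every M28L mouse lies below every 5xFAD mouse of its sex, and for Nfkbia the M28L means lie above the 5xFAD means of the same sex.

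Tlr2 encodes the receptor itself, which pairs with Tlr1 or Tlr6 to bind lipoproteins. Its log2 level in 5xFAD mice was 5.84 at the lowest, 6.04 at the median and 6.46 at the highest in females, and 6.07, 6.20 and 6.36 in males. In M28L mice it was 4.88, 5.51 and 6.01 in females and 5.5, 5.75 and 6.25 in males. In P522R mice it was 5.96, 6.1 and 6.35 in females and 5.89, 6.3 and 6.42 in males. M28L mice thus lay low, with 11 of 12 below the 5xFAD mean of their sex, though 1 female and 1 male reached into the 5xFAD range. The difference between M28L and 5xFAD mice was -0.53 (SE 0.10, adjusted p = 0.000381 by limma). P522R and 5xFAD ranges overlapped in both sexes, and the difference was 0.04, with a 95% interval from -0.16 to 0.24 (adjusted p = 0.714 by limma). Against M28L mice, P522R mice were higher by 0.57 (SE 0.10, adjusted p = 4.81e-06 by limma), and 12 of 12 lay above the M28L mean of their sex.

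In order of mean level, Tlr2 was highest in P522R males (6.25 ± 0.20, SD), then 5xFAD males (6.20 ± 0.13), P522R females (6.14 ± 0.14), 5xFAD females (6.10 ± 0.23), M28L males (5.79 ± 0.25) and M28L females (5.45 ± 0.40), n = 6 each. Only the step from 5xFAD females to M28L males, 0.31, was larger than the SD of both groups it parts. None of the other 4 steps exceeded the SD of both neighbours.

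Cd14, the co-receptor that loads ligands onto Tlr2 and Tlr4, separated the genotypes more cleanly. Its log2 level ran from 6.47 over a median of 6.84 to 7.19 in 5xFAD females and from 6.51 over 6.80 to 7.53 in 5xFAD males. In M28L mice it ran from 5.91 over 6.11 to 6.27 in females and from 6.09 over 6.32 to 6.49 in males. P522R females ran from 6.25 over 7.08 to 7.51 and P522R males from 6.26 over 6.98 to 7.43. All 12 M28L mice lay below every 5xFAD mouse of their sex, with the highest M28L male at 6.49 next to the lowest 5xFAD male at 6.51. M28L mice differed from 5xFAD mice by -0.64 (SE 0.13, adjusted p = 0.000632 by limma). For P522R against 5xFAD mice the difference was 0.14, with an interval from -0.12 to 0.40 (adjusted p = 0.35 by limma). P522R mice exceeded M28L mice by 0.78 (SE 0.13, adjusted p = 1.85e-06 by limma), in 11 of 12 mice. The P522R spread was wide, since 1 female at 6.25 and 1 male at 6.26 lay as low as M28L mice.

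The Cd14 means ordered as P522R females (7.01 ± 0.43, SD), P522R males (6.93 ± 0.45), 5xFAD males (6.87 ± 0.39), 5xFAD females (6.80 ± 0.27), M28L males (6.3 ± 0.17) and M28L females (6.09 ± 0.14), n = 6 each. The first 4 did not differ from their neighbours beyond the spread. The steps from 5xFAD females to M28L males, 0.50, and from M28L males to M28L females, 0.21, were larger than the SDs of the groups they part.

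Ccl3 encodes a chemokine that draws leukocytes, and it showed the largest M28L difference of the 5 genes. Log2 levels in 5xFAD mice were 7.47, 7.73 and 8.05 (lowest, median, highest) in females and 7.07, 7.42 and 7.75 in males. M28L mice had 6.33, 6.54 and 6.75 in females and 5.69, 6.10 and 6.75 in males. P522R mice had 6.77, 7.64 and 7.82 in females and 6.12, 7.16 and 7.56 in males. No M28L mouse reached a 5xFAD mouse of its sex. The M28L difference was -1.26 (SE 0.13, adjusted p = 1.31e-08 by limma). In recovered counts, the medians were 171 and 165 in 5xFAD females and males and 73 and 71.5 in M28L females and males, well above the floor of the dimmest genes.

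In P522R mice Ccl3 was lower than in 5xFAD mice by a small amount, -0.30 (SE 0.13, adjusted p = 0.0433 by limma, 1.23-fold), where 24.9% of all genes were called lower. Of the 12 P522R mice, 10 lay below the 5xFAD mean of their sex, and the ranges overlapped. This call was lost without the variance trend (adjusted p = 0.052 by limma), without a sex term (0.112) and with index number as a replicate block (-0.33, 0.0864). It was also lost in 11 of the 36 fits that leave out 1 mouse, and without the female at 6.77 (mouse 60) the difference was -0.22 (adjusted p = 0.104) and without the male at 6.12 (mouse 27) -0.21 (adjusted p = 0.112). The other mice whose removal ended it were 5xFAD females 1190, 1248 and 1249, 5xFAD males 1177, 1181, 1268 and 1270 and P522R males 23 and 30, with differences from -0.30 to -0.27. P522R mice were above M28L mice by 0.97 (SE 0.13, adjusted p = 4.74e-08 by limma), in 12 of 12 mice. Females of these genotypes did not overlap, and among males 1 P522R mouse fell into the M28L range.

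By mean level Ccl3 ran from 5xFAD females (7.77 ± 0.23, SD) through P522R females (7.53 ± 0.38), 5xFAD males (7.41 ± 0.23), P522R males (7.05 ± 0.51) and M28L females (6.54 ± 0.15) to M28L males (6.11 ± 0.40), n = 6 each. Of the 5 steps, only that between M28L females and M28L males, 0.43, exceeded the SD of both neighbours, and the step of 0.51 from P522R males to M28L females equalled the SD of the P522R males.

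Cybb, the catalytic subunit of the phagocyte oxidase, was dim in every group. Log2 levels were 5.00, 5.51 and 6.09 (lowest, median, highest) in 5xFAD females and 4.56, 5.49 and 5.97 in 5xFAD males. They were 4.06, 4.39 and 4.99 in M28L females and 4.15, 4.32 and 4.4 in M28L males. In P522R females they were 4.96, 5.28 and 5.85, and in P522R males 4.33, 5.22 and 5.43. As for Cd14 and Ccl3, all 12 M28L mice lay below every 5xFAD mouse of their sex, the closest pair being 4.99 and 5.00 in females. The M28L difference was -1.10 (SE 0.14, adjusted p = 1.41e-06 by limma).

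Behind the Cybb values stood 13 to 25 counts in M28L females and 19 to 21 in M28L males, against 27 to 59 and 25 to 62 in 5xFAD females and males. The dimmest genes of the panel had medians of 5.0 and 10.25 counts in these M28L groups, which is close to the Cybb counts. With that floor subtracted from each mouse the M28L difference was -1.57 (adjusted p = 2.95e-06 by limma), further from 0 than as deposited. The floors of 5xFAD mice were similar, 5.0 counts in females and 9.0 in males. Subtracting similar floors from unequal counts widens a log2 difference by arithmetic, so the part of the floor was not tested by it. P522R mice differed from 5xFAD mice by -0.27, with an interval from -0.56 to 0.03 (adjusted p = 0.103 by limma), and 10 of 12 lay below the 5xFAD mean. That difference passed under 3 scalings: -0.58 with the floor subtracted (adjusted p = 0.0165 by limma), -0.48 after quantile normalization (0.00508) and -0.32 after centring within each panel (0.0471). It also passed without 5xFAD male 1182, the lowest of its group (-0.35, adjusted p = 0.024 by limma). P522R mice were above M28L mice by 0.83 (SE 0.14, adjusted p = 4.66e-06 by limma), in 12 of 12 mice.

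The means of Cybb fell into an upper set of 5xFAD females (5.51 ± 0.40, SD), 5xFAD males (5.41 ± 0.47), P522R females (5.33 ± 0.30) and P522R males (5.06 ± 0.43) and a lower set of M28L females (4.44 ± 0.34) and M28L males (4.29 ± 0.11), n = 6 each. Within each set no step exceeded the SD of both neighbours, though the step of 0.15 from M28L females to M28L males exceeded the SD of the males. The step between the sets was 0.62, larger than the SD of both groups it parts.

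Nfkbia, whose product IkB alpha holds NF-kB in the cytoplasm, was the gene that rose. In 5xFAD mice its log2 level was 6.83, 7.11 and 7.18 (lowest, median, highest) in females and 7.38, 7.55 and 7.86 in males. In M28L mice it was 7.16, 7.47 and 7.93 in females and 7.66, 8.08 and 8.65 in males. P522R mice stood between, with 6.90, 7.29 and 7.52 in females and 7.79, 7.91 and 8.05 in males. The ranges overlapped in both sexes, but 12 of 12 M28L mice and 11 of 12 P522R mice lay above the 5xFAD mean of their sex. The difference from 5xFAD mice was 0.47 in M28L mice (SE 0.09, adjusted p = 0.00055 by limma). It was 0.27 in P522R mice (SE 0.09, adjusted p = 0.0107 by limma), where 40.5% of all genes were called higher. Both comparisons use the same 5xFAD mice.

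A fit without a sex term ended both Nfkbia calls (adjusted p = 0.0895 for M28L and 0.135 for P522R by limma), with differences of 0.47 and 0.27 as before. Between the variants, P522R mice had an Nfkbia difference from M28L mice of -0.20, with an interval from -0.39 to -0.01 (adjusted p = 0.053 by limma), and 12 of 12 P522R mice lay below the M28L mean of their sex. This difference passed in 9 of 36 fits that leave out 1 mouse, at -0.25 to -0.21. Those mice were M28L females 14 (either index) and 16, M28L males 11, 17 and 21, P522R females 106 and 24 and P522R male 29. Scaling moved it from -0.40 (housekeeping centring, adjusted p = 0.000526 by limma) to 0.03 (centring within each panel, adjusted p = 0.773), so it has no settled sign.

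For Nfkbia the order was M28L males (8.1 ± 0.38, SD), P522R males (7.92 ± 0.09), 5xFAD males (7.60 ± 0.19), M28L females (7.52 ± 0.28), P522R females (7.29 ± 0.23) and 5xFAD females (7.07 ± 0.14), n = 6 each. The step of 0.32 between P522R males and 5xFAD males alone exceeded the SD of both neighbours. In the deposited values the male groups thus stood above the female groups, and within each sex the genotypes ran in the same order. Both depend on the scaling. The difference between the variants has no settled sign, and the sex difference was -0.11 after centring within each panel (adjusted p = 0.188 by limma).

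**Figure D2:**
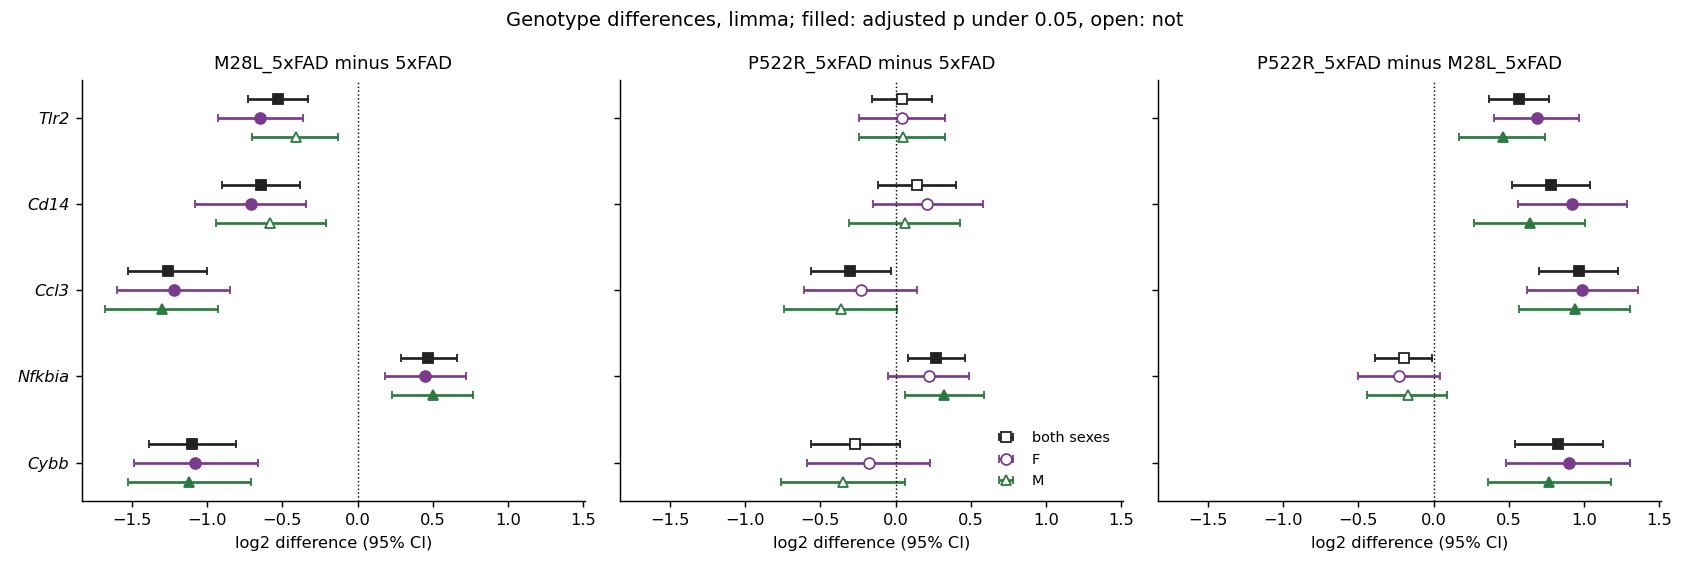
Log2 differences between genotypes (x axis) with 95% intervals for each gene, averaged over sexes (squares), in females (circles) and in males (triangles), filled where the adjusted p was under 0.05. Against 5xFAD mice, M28L mice sit left of 0 for Tlr2, Cd14, Ccl3 and Cybb and right of 0 for Nfkbia in both sexes, and the difference of P522R from 5xFAD mice is 0.04 for Tlr2 and -0.30 for Ccl3.

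Within females all 5 genes passed in M28L against 5xFAD mice, where 3.87% of all genes did. The differences were -1.22 for Ccl3, -1.08 for Cybb, -0.71 for Cd14, -0.65 for Tlr2 and 0.45 for Nfkbia, with adjusted p from 0.000105 (Ccl3) to 0.0424 (Nfkbia) by limma. Within males Ccl3 (-1.30), Cybb (-1.12) and Nfkbia (0.50) passed, where 2.05% of all genes did, at adjusted p of 2.85e-05, 0.001 and 0.0298. Male Cd14, at -0.58, and male Tlr2, at -0.41, had the same sign but adjusted p of 0.105 and 0.155 by limma. Male Tlr2 passed without M28L male 21, the mouse at 6.25 (-0.51, adjusted p = 0.0454 by limma). Male Cd14 passed without P522R female 60 (-0.58, adjusted p = 0.0483 by limma). In females the count fell from 5 to 3 without 5xFAD female 1249, which ended the calls of Cd14 (-0.63, adjusted p = 0.0605 by limma) and Nfkbia (0.47, 0.0603).

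The Nfkbia calls within a sex depended on the setting. In females Nfkbia passed in 27 of 36 fits that leave out 1 mouse and in 7 of 15 other settings, with differences from 0.34 to 0.67 and adjusted p up to 0.217 by limma. Leaving out any of the 6 5xFAD females, or M28L female 12, 20 or 28, ended the call, at 0.37 to 0.47. In males Nfkbia passed in 29 of 36 such fits and in 12 of 15 other settings, and leaving out 5xFAD male 1181, 1268, 1269 or 1270 or M28L male 9, 10 or 15 ended the call, at 0.39 to 0.49.

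An exact permutation test of each gene alone, two-sided and adjusted over 30 tests of 5 genes, 3 genotype pairs and 2 sexes, used each gene's own values alone. All 10 tests of M28L against 5xFAD mice passed, with adjusted p from 0.00928 to 0.0273. The smallest exact p that 6 mice against 6 allow is 0.00216, and Cd14, Ccl3 and Cybb reached it in each sex. For P522R against 5xFAD mice only Nfkbia in males passed (exact permutation, adjusted p = 0.0162). The M28L interaction, the M28L difference in females minus that in males, was called for 0 of 1266 genes by limma (0.0%). At an unadjusted p under 0.05 by limma there were 34 genes. The largest M28L interaction among the 5 genes was -0.23 for Tlr2, with an interval from -0.64 to 0.17. The P522R interaction was called for 20.9% of all genes and for none of these 5, whose adjusted p ran from 0.715 to 0.991.

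Within sexes, P522R mice differed from 5xFAD mice in none of the 5 genes in females, where 60.2% of all genes were called, and in Nfkbia in males (0.32, adjusted p = 0.0391 by limma), where 50.6% were. The male Nfkbia call was kept in 28 of 36 fits that leave out 1 mouse; without 5xFAD male 1181, 1268, 1269 or 1270 or P522R male 27, 29, 30 or 31 it was lost, at 0.28 to 0.33. The share of these genes called was below that of all genes. Against M28L mice, Tlr2, Cd14, Ccl3 and Cybb were higher in P522R mice in both sexes. That is 4 of 5 genes where 61.0% of all genes were called in females and 50% in males, and 41.5% higher and 26.1% lower over both sexes. Differences in females were 0.69, 0.92, 0.99 and 0.90 for Tlr2, Cd14, Ccl3 and Cybb, and in males 0.46, 0.64, 0.94 and 0.77.

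The scaling behind these calls matters for the table as a whole. Centring each mouse on its housekeeping genes Tbp and Gusb turned the M28L calls over all genes from 59 higher and 71 lower into 276 higher and 30 lower, and the median of all genes into 0.17. For P522R against 5xFAD mice, calls went from 513 higher and 315 lower to 392 higher and 373 lower with the floor subtracted. For P522R against M28L mice, they went from 525 higher and 331 lower to 183 higher and 483 lower after housekeeping centring. The M28L differences of Tlr2, Cd14, Ccl3, Nfkbia and Cybb kept their signs under every scaling tried, and all 5 passed in each of the 36 fits that leave out 1 mouse. Ranges over the 16 other settings were -0.64 to -0.36 for Tlr2, -0.71 to -0.48 for Cd14, -1.37 to -1.08 for Ccl3, 0.37 to 0.64 for Nfkbia and -1.57 to -0.67 for Cybb.

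The other genes of the same pathways were read next, from lists by role. Of the Toll-like receptors and co-receptors 5 were measured, and the 2 that fell in M28L mice were Tlr2 and Cd14. The endosomal receptors Tlr3 (-0.16, adjusted p = 0.402 by limma) and Tlr7 (-0.04, adjusted p = 0.908) and the lipopolysaccharide receptor Tlr4 (0.12, adjusted p = 0.499) did not pass. Of 3 adaptors and kinases, Ticam1, the adaptor of Tlr3 and Tlr4, rose by 0.36 (adjusted p = 0.0443 by limma), and Myd88 (0.05) and Tbk1 (0.11) did not pass. The median difference was -0.16 over the receptors and 0.11 over the adaptors, beside 0.00 over all genes.

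**Figure D3:**
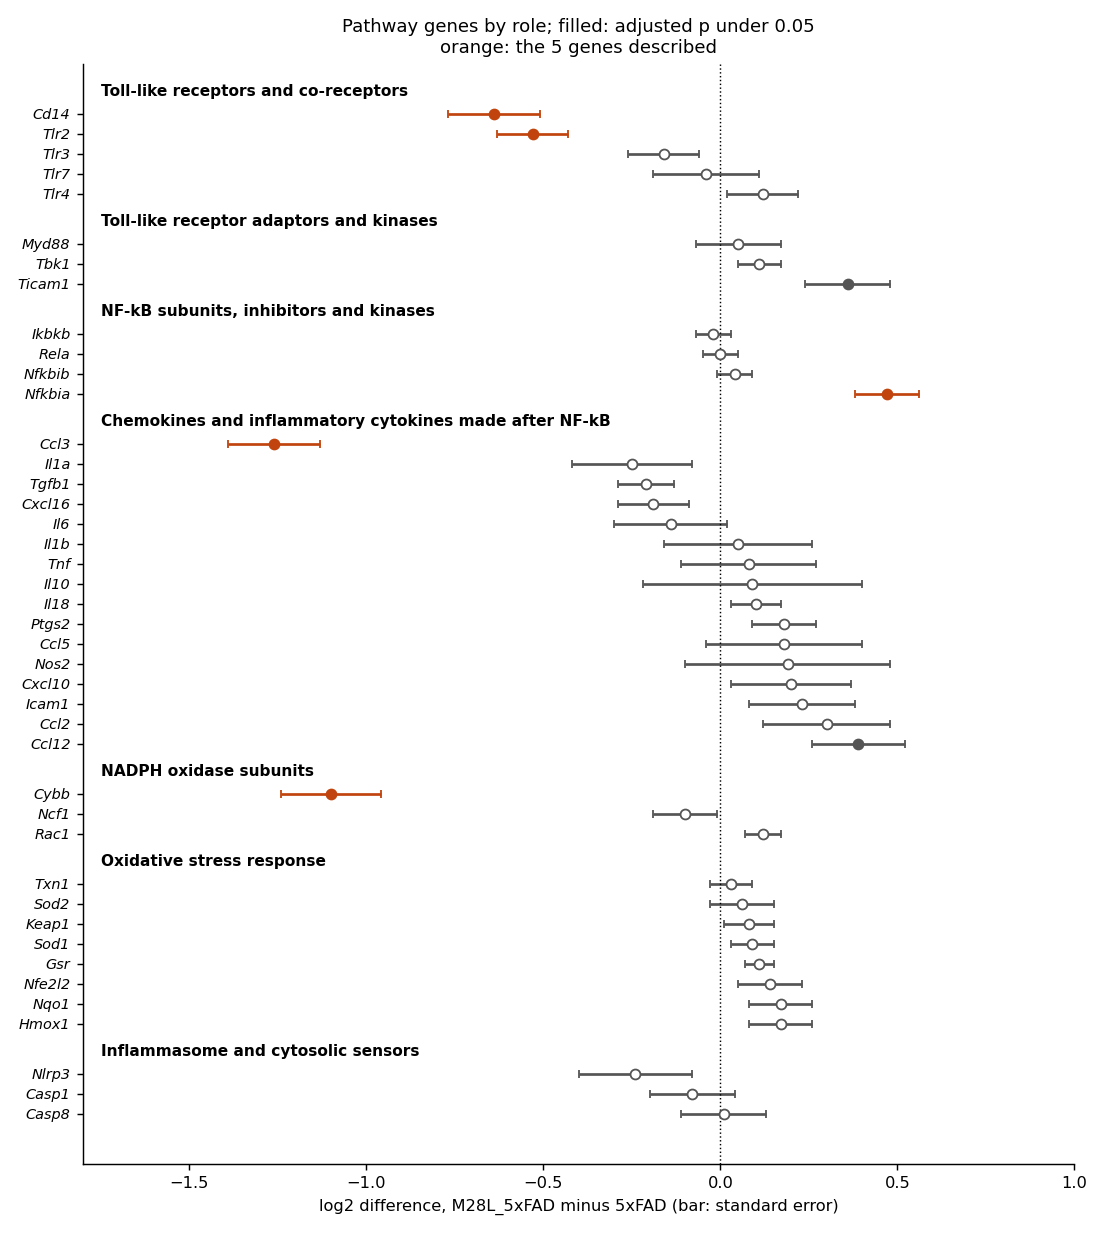
Log2 difference between M28L_5xFAD and 5xFAD mice, averaged over sexes, for the measured genes of 7 pathway lists (y axis, by role), with its standard error, filled where the adjusted p was under 0.05. Among the chemokines and cytokines Ccl3 lies far left at -1.26 and Ccl12 right at 0.39, while Rela, Nfkbib and Ikbkb lie within 0.04 of 0.

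Among 4 NF-kB genes only Nfkbia passed in M28L mice. Rela, a subunit of NF-kB, differed by 0.00 (SE 0.05, adjusted p = 0.988 by limma), the related inhibitor Nfkbib by 0.04 (SE 0.05) and the kinase Ikbkb by -0.02 (SE 0.05). Of 16 chemokines and cytokines 1 fell, Ccl3, and 1 rose, Ccl12 (0.39, adjusted p = 0.0483 by limma), a ligand of Ccr2. Tgfb1 (-0.21, adjusted p = 0.0888 by limma) and Ptgs2 (0.18, adjusted p = 0.268) did not pass. For 7 of the 16, Tnf, Il1b and Il6 among them, mice averaged fewer than 20 counts, so a difference could be missed at this depth. The median over the 16 was 0.10. With the floor subtracted, Ticam1 and Ccl12 kept their signs but lost their calls.

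Of 3 NADPH oxidase subunits, Cybb fell, and neither Ncf1, the cytosolic organizer p47phox (-0.10, adjusted p = 0.559 by limma), nor the small GTPase Rac1 (0.12, adjusted p = 0.112) passed. The 8 genes of the oxidative stress response, Nqo1 and Hmox1 (each 0.17) and Gsr (0.11) among them, held 0 calls in M28L mice, as did the 3 inflammasome genes Nlrp3 (-0.24), Casp1 (-0.08) and Casp8 (0.01). After housekeeping centring 5 of the 8 oxidative stress genes were called higher. In P522R against 5xFAD mice 40.5% of all genes were called higher and 24.9% lower, so calls in the lists are common there. The receptor list held 1 call, Tlr3 (-0.50, adjusted p = 8.51e-05 by limma). In the same comparison Ticam1 (0.57, adjusted p = 5.81e-05 by limma), Tbk1 (0.26), Rela (0.27, adjusted p = 5.69e-05) and Nfkbib (0.13) were higher beside Nfkbia. Under the 4 other scalings the NF-kB list held 2 to 4 calls. Ccl12 was lower there, at -0.52 (adjusted p = 0.000788 by limma), and Ptgs2 higher, at 0.45. Rac1 was lower, at -0.21.

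Cell type markers were read beside these results, since in a piece of cortex fewer cells of a type and less RNA per cell cannot be told apart. Of 13 microglia markers, 2 fell in M28L mice, Cx3cr1 among them (-0.42, adjusted p = 0.00438 by limma), and 1 rose, Tmem119 (0.38, adjusted p = 0.0228), with a median of -0.16. After housekeeping centring 1 of the 2 fell. Their summed linear level ran from 10045 to 13522 in 5xFAD females and from 9374 to 12202 in 5xFAD males. In M28L mice it ran from 8402 to 10257 in females and from 7903 to 11180 in males, and in P522R mice from 8378 to 16674 and from 7943 to 13060. The M28L sums thus lay lower with overlap, as the levels of Tlr2 did. Their part in the fall of Tlr2, Cd14, Ccl3 and Cybb was not tested.

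Markers of other myeloid cells were few. The border macrophage genes Cd163 and Stab1, 2 of 8 listed, did not pass in M28L mice (0.26 and 0.17), and their summed level ran from 33 to 131 over the M28L mice and from 35 to 123 over the 5xFAD mice. Of Ccr2 and Csf3r, the 2 measured of 10 monocyte and neutrophil markers, Csf3r fell (-0.42, adjusted p = 0.0302 by limma) and Ccr2 did not pass (0.49). Their sum ran from 62 to 96 in M28L and from 53 to 119 in 5xFAD mice. None of 9 lymphocyte, 5 oligodendrocyte or 8 neuron markers passed in M28L mice by limma. Gfap (-0.38, adjusted p = 0.033 by limma), 1 of 6 astrocyte markers, and Cldn5 (-0.55, adjusted p = 4.03e-05 by limma), 1 of 6 endothelial markers, fell. The calls of Csf3r and Gfap were lost after housekeeping centring. In P522R against 5xFAD mice 7 of 9 lymphocyte markers were called higher, where 40.5% of all genes were. After quantile normalization 2 of 9 were called higher, where 416 of all 1266 genes were. Of these 9 markers, 8 averaged fewer than 20 counts, and the floor was higher in P522R mice. The part of the floor was not tested. No marker was at 0.

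The sexes differed in level for most genes of the table: 83.7% of all genes were lower in females and 2.69% higher, with a median difference of -0.38. As deposited, Nfkbia was lower in females by -0.58 (adjusted p = 9.39e-09 by limma) and Tlr2 by -0.19 (adjusted p = 0.0336), while Ccl3 was higher by 0.42 (adjusted p = 0.000455). Cd14 (-0.07, adjusted p = 0.542 by limma) and Cybb (0.18, adjusted p = 0.155) did not pass. The sign held under each scaling for Ccl3, 0.42 to 0.79, for Cybb, 0.18 to 0.64, and for Nfkbia, -0.58 to -0.11. Tlr2 turned to 0.07 to 0.18 and Cd14 to 0.19 to 0.29 under the 4 other scalings. Cybb passed under each of these 4, and Nfkbia did not under centring within each panel (-0.11, adjusted p = 0.188 by limma). The calls over all genes went from 34 higher and 1060 lower to 341 higher and 352 lower after quantile normalization.

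**Figure D4:**
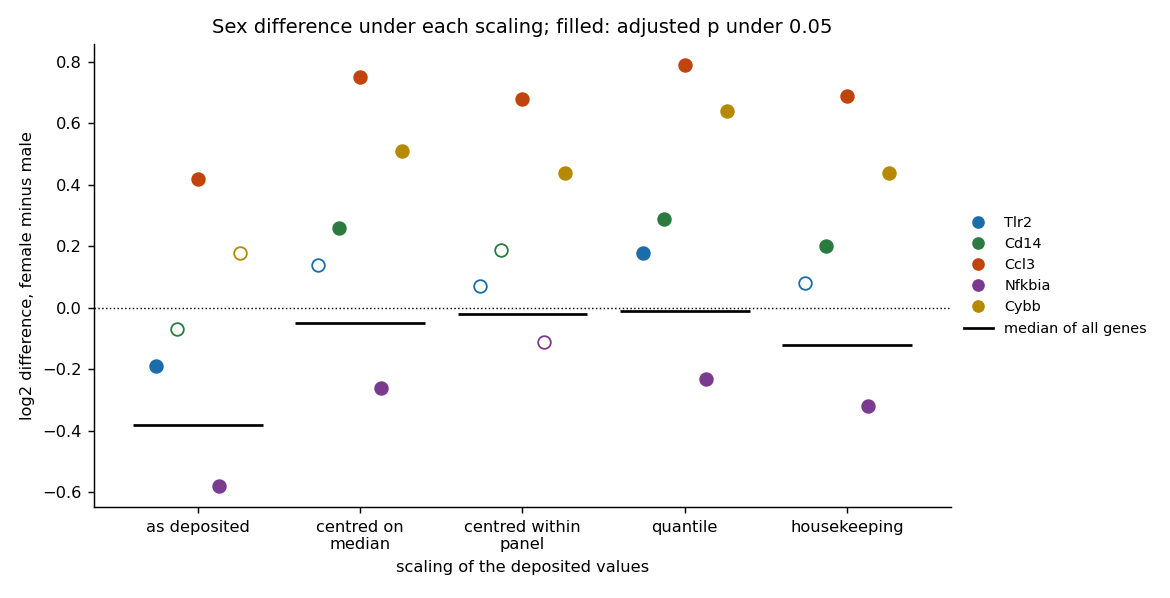
Log2 difference, female minus male (y axis), of each gene under the deposited values and 4 other scalings (x axis), filled where the adjusted p was under 0.05, with the median of all genes as a line. Ccl3 lies above 0 throughout and Nfkbia below 0 throughout, and Tlr2 and Cd14 change sign.

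Within genotypes, Nfkbia was lower in females of each, by -0.53 in 5xFAD, -0.58 in M28L and -0.64 in P522R mice. These comparisons called 72.0%, 69.0% and 69.6% of all genes. Under the 4 other scalings none of these Nfkbia calls held, with values of -0.33 to -0.03 in 5xFAD, -0.27 to -0.09 in M28L and -0.38 to -0.22 in P522R mice (adjusted p from 0.0628 to 0.89 by limma). Ccl3 was higher in females of M28L (0.43, adjusted p = 0.0371 by limma) and P522R mice (0.48, adjusted p = 0.0207) and did not pass in 5xFAD mice (0.35, adjusted p = 0.0831). The M28L call was lost without M28L female 14 (index F1), 16 or 28 or M28L male 9, 11 or 15 (0.35 to 0.42), and the P522R call without P522R female 24 (0.42) or P522R male 27 (0.30). Under the 4 other scalings female Ccl3 passed in all 3 genotypes, at 0.56 to 0.85. Tlr2 passed in M28L mice (-0.34, adjusted p = 0.0318 by limma), and that too turned, to 0.01 after median centring.

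With the group means removed, the genes were set against each other over the 36 mice in 10 pairs, with values permuted within groups. Cd14 and Ccl3 deviated together (Pearson r = 0.67, Spearman rho = 0.58, adjusted permutation p = 0.0012 and 0.0068), and so did Tlr2 and Ccl3 (r = 0.53, rho = 0.52, adjusted permutation p = 0.0012 and 0.0068). Without the 2 mice farthest from the median of the first gene, r was 0.48 and 0.59. By genotype, r of Cd14 with Ccl3 was 0.74 in 5xFAD, 0.27 in M28L and 0.79 in P522R mice, and r of Tlr2 with Ccl3 was 0.54, 0.46 and 0.77. Ccl3 with Cybb (r = 0.43, adjusted permutation p = 0.033; rho = 0.35, 0.103) and Cd14 with Nfkbia (r = 0.34, adjusted permutation p = 0.0455; rho = 0.38, 0.0737) passed by Pearson's r alone. The other 6 pairs did not pass. Nfkbia with Tlr2 (r = -0.36 over all mice) had an r of -0.65 in 5xFAD, -0.51 in M28L and 0.50 in P522R mice, and Nfkbia with Ccl3 (-0.15) had -0.41, -0.46 and 0.33.

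**Figure D5:**
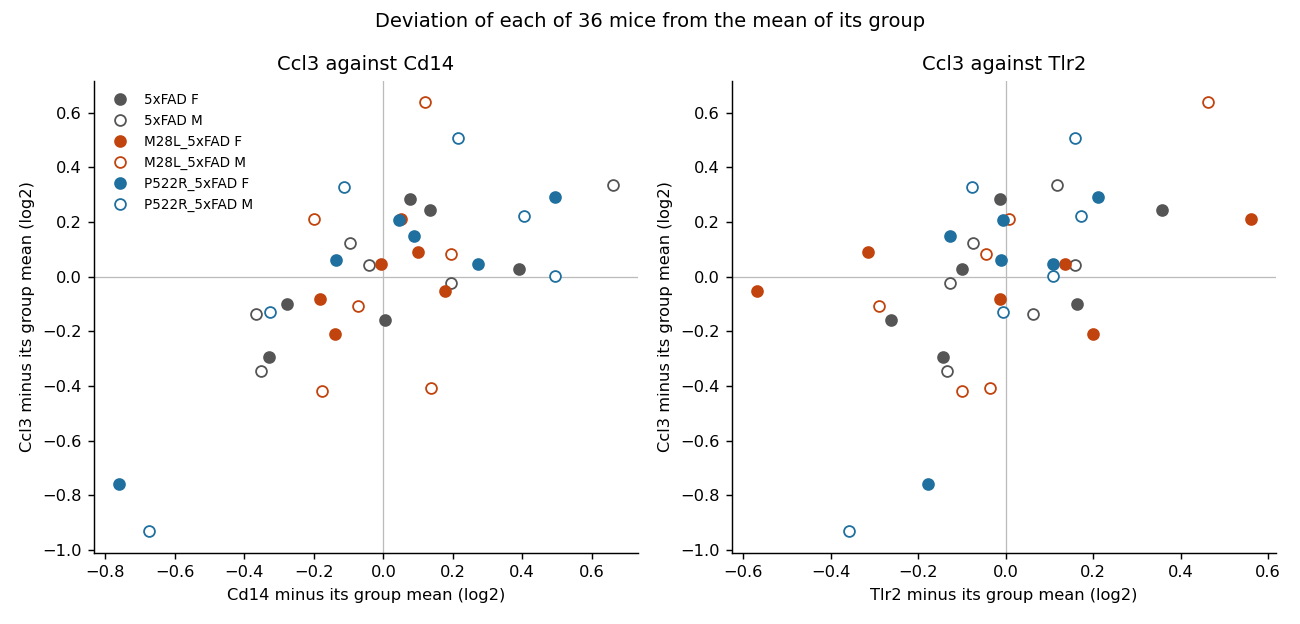
Deviation of Ccl3 from its group mean (y axis, log2) against that of Cd14 (left) and Tlr2 (right) in 36 mice, coloured by genotype, females filled. A P522R female (mouse 60) and a P522R male (mouse 27) lie lowest for Ccl3 in both plots.

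Mice 60 and 27, the lowest for Ccl3 and Cd14 in their groups, also had the lowest microglia marker sums of their groups, 8378 and 7943. Their totals on the 757-gene panel, 1802456 and 1683391, were within the range of their groups. For each gene genes were named from the 3 with the most similar deviations among 1090 genes, as a description over 36 mice. Tlr2 went with Tgfb1 (r = 0.68), Cx3cr1 (0.67) and Csf1r (0.67), Cd14 with Aqp4 (0.81) and C1qa (0.80), and Ccl3 with Clec7a (0.80) and Fcrls (0.79). Nfkbia and Cybb had weaker neighbours, Abcg2 (0.52), Prpf3 (0.51) and Sirt7 (0.51) for Nfkbia and Psmb8 (0.53), Sp100 (0.51) and Gdpd2 (0.47) for Cybb. Microglial genes thus stood among the neighbours of Tlr2 and Ccl3, and the astrocyte water channel Aqp4 stood among the neighbours of Cd14. Genes of a panel share its scaling and depth.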

How the data were processed

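Cortical RNA of 36 mice was measured on 2 NanoString panels, and the authors deposited a table of log2 values in which both panels are joined. How they normalized it is not stated in the labels or the table. RNA came from a PureLink kit, per the labels' protocols. Of 1517 rows, 251 named no gene, which leaves 1266. Linear values were whole multiples of a step per mouse and panel (100.0% within 0.05 counts), which gave the counts and the panels. Intervals are confidence intervals of differences between group means, with 6 mice a group, from limma's fit of all 36 mice. The spread between the mice of a group is given by the SD.

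Genes were tested on the log2 values with limma 3.58.1 in R 4.3.3 (a mean per genotype and sex, eBayes with trend, two-sided, Benjamini-Hochberg over 1266 genes, threshold 0.05). The fit was also run on simulated data with known changes, drawn without differences in depth, floor or scaling between groups. Permutation tests and correlations used scipy 1.17.1 in Python 3.11.15, with 100000 resamples for correlations. The genes and lists were chosen with earlier results of these data known. Named genes are the 5, up to 3 others per list with the smallest p in M28L against 5xFAD, further genes of a list only as examples chosen after their values were seen, and the 3 most similar per gene; some list and similar genes are not reported here. Loci, promoters and symbols are RefSeq's (GRCm38.p6). Alternatives were 5 ways of scaling, stricter filters, adding 20 before the log, other variance models and fits, and leaving out each mouse.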

Additional observations from a re-analysis of the deposited data

Results flagged for a closer look

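A single value stood apart in its group. Ccl3 in P522R_5xFAD female mouse 60 had a log2 level of 6.77, and the next mouse of its group was at 7.58, a gap of 0.77 of the whole range, above the 0.625 that marks an outlier among 6. Of 30 groups of 6 values checked (5 genes in 6 groups) this was the only one, and chance marks about 1 in 20 groups. The mouse also had the lowest Cd14 level of its group, 6.25.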

How the results depend on the processing

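Counts below are of the 5 genes called by limma. Leaving out each mouse in turn gave 5 to 5 for M28L against 5xFAD, 1 to 3 for P522R against 5xFAD (main 2) and 4 to 5 for P522R against M28L (main 4). Within sexes it gave 3 to 5 (females) and 2 to 4 (males) for M28L, and 0 to 1 and 0 to 2 for P522R against 5xFAD. Between sexes it gave 2 to 3 (main 3), and 1 to 2 in 5xFAD, 1 to 3 in M28L and 1 to 2 in P522R mice. The P522R against 5xFAD count was 1 without the variance trend, 0 without a sex term and 1 with the replicate block; in females it was 1 after centring within panels (main 0) and in males 2 after quantile normalization (main 1). The M28L count in females was 1 with M28L mice of index 7 to 9 alone and 3 with the replicate block (main 5), and the P522R against M28L count in males was 2 with the block (main 4). The sex count was 5 after quantile normalization and 1 without genotype. Within 5xFAD it was 2 after median centring, 3 after quantile normalization and 2 with fewer groups in the fit (main 1). Within M28L it was 1 after centring within panels, 1 after housekeeping centring and 1 with M28L mice of index 1 to 3 alone and 1 with those of index 7 to 9 (main 3), and within P522R it was 1 after median centring, centring within panels or housekeeping centring (main 2). Reversed values were, for females minus males, Tlr2 at 0.14 (median), 0.07 (within panels), 0.18 (quantile) and 0.08 (housekeeping), Cd14 at 0.26, 0.29 and 0.20 (median, quantile, housekeeping), Cd14 in 5xFAD at 0.38 (quantile) and Tlr2 in M28L at 0.01 and 0.06 (median, quantile). The cause was not tested. Where neither fit passed, the sign changed in 31 leave-out and 37 other values, between -0.07 and 0.31. Over all genes, the 130 M28L calls became 306 after housekeeping centring, 30 without a sex term, and 77 and 88 with M28L mice of index 1 to 3 and 7 to 9. The 1094 sex calls became 627 after centring within panels and 601 after housekeeping centring. Same-index mice did not deviate together (22 pairs, r from -0.48 to 0.29, 1 over 0.1, beside 72 of 194 other pairs). No pairing by index number was seen, though this cannot show what the numbers stand for. Index and sex could not be fitted together for the sex comparison. List counts in M28L mice rose at most from 0 to 5, for the oxidative stress genes. Depth limits Cybb, at 13 to 25 counts a mouse in M28L females and 19 to 21 in M28L males, and the list genes under 20 counts.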
